A study of Mus musculus with 24 samples.

Results

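The genes of the extracellular matrix and of its remodeling were examined for H3K4me3 in the C127 cell line, which the labels describe as mouse mammary epithelium. They were the protein-coding genes with symbols that start with Col, a number and a (collagen chains), Lama, Lamb or Lamc (laminin chains), Mmp and a number (matrix metalloproteinases), Timp (their tissue inhibitors) or Adamts (secreted metalloproteinases with thrombospondin repeats, and the Adamtsl proteins that resemble them), together with Fn1, Sparc, Postn, Dcn, Lum, Smoc1, Smoc2, Lox, Loxl1 and Loxl2. This gave 116 of the 21755 protein-coding genes of the 20 chromosomes used. H3K4me3 is a histone modification found around the transcription start sites (TSSs) of active genes and at many CpG islands, which are stretches of DNA rich in the dinucleotide CG. A gene was taken to have a peak when a region enriched for H3K4me3 came within 250 bp of any of its annotated TSSs.

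The extracellular matrix is the meshwork of secreted proteins that surrounds cells. Collagens and laminins are trimers of chains that are encoded by separate genes. Fibrillar collagens make the fibers of connective tissue, while type IV collagens and laminins make the sheet-like basement membrane that lies under epithelia such as the mammary ducts. Metalloproteinases of the Mmp and Adamts families cut these proteins, Timp proteins inhibit the enzymes, and lysyl oxidases crosslink collagen and elastin.

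The series held 24 ChIP-seq and input samples of C127 cells in 12 groups. All were grown in the same serum-containing medium, and some of the groups expressed GFP or a GFP fusion of CFP1, a subunit of the SET1 methyltransferase complexes, in clonal lines. The H3K4me3 ChIP on cells without a named transgene had 3 replicates, which the authors reduced to a single list of 13451 peaks, and the 21 samples of the other groups were not used here. The list gives positions but no heights, so the depth behind a peak is unknown, widths have no spread between replicates, and the intervals given for shares are 95% Wilson intervals that cover the counting of genes only.

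The epithelial label was checked against marker genes. None of 9 luminal mammary epithelial markers (keratins 7, 8, 18 and 19, Epcam, Cdh1, Elf5, Cldn3 and Cldn4), 4 milk protein genes and 6 basal or myoepithelial markers had a peak at a TSS. By contrast, 10 of 12 fibroblast and mesenchymal markers had a peak (83.3%, interval 55.2 to 95.3), including Vim, Pdgfra, Pdgfrb, Twist1, Snai1 and Zeb1, whereas Prrx1 and Thy1 did not. None of 5 endothelial and 5 immune markers had a peak. All 9 luminal markers had a CpG island at a TSS, as did 10 of the 12 mesenchymal markers. So did 2 of the 6 basal and 2 of the 5 endothelial markers, and none of the milk and immune genes. A peak lay at 70.2% of all protein-coding genes with an island and 5.02% of those without. The interval of the mesenchymal markers held this 70.2%, and 9 of the 10 with an island had a peak. The nearest peaks to Krt14, Prrx1, Cd68 (an immune marker) and Krt8 were 594, 686, 1181 and 1757 bp away. At the TSSs of the luminal markers the peaks therefore went against the epithelial label, while the milk, basal, endothelial and immune genes say little. The mesenchymal share was not clearly above that of genes with an island. The cells are called C127 cells below.

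Fewer matrix genes than protein-coding genes in general had H3K4me3 at a TSS, and a larger share of the peaks that were there lay among the widest. A peak lay at a TSS of 44 of the 116 matrix genes (37.9%, interval 29.6 to 47.0), compared with 49.4% of all protein-coding genes and 49.5% of those outside the matrix set. The remaining 72 had no peak within 250 bp. In all 44 genes the peak covered a TSS. Col4a1 and Col4a2 share 1 peak, which counts for both genes here and in the widths below. Col4a3bp, which encodes a ceramide transfer protein and entered through the start of its symbol, is no collagen, and without it 43 of 115 genes had a peak (37.4%). The median width of the 44 peaks was 3774 bp (quartiles 2199 and 5286 bp, interval 3088 to 4434 bp), compared with 3254 bp (quartiles 2410 and 4258 bp) for the widest TSS peak of each of the 10747 protein-coding genes with a peak. The median of all genes lay within the interval of the matrix genes. At the wide end, 11 of the 44 genes (25.0%) lay among the widest 10% of all genes with a peak, where 9.97% of all genes lay. Of the related lists described further below, collagen folding and crosslinking (26.1%) and matrix receptors (26.7%) had similar shares. The share was 10.5% for other glycoproteins and proteoglycans and 0% for other proteases and inhibitors. Wide peaks were therefore not particular to the matrix set. At the other end, 7 of the 44 lay among the narrowest 10%, as did 1076 of the 10747, and 7 is too small a count to show an excess. In the following, the percentile of a width is the share of all protein-coding genes with a peak whose widest TSS peak was narrower.

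The share with a peak varied between families. It was highest for the Timp genes (3 of 4, 75.0%) and lowest for the Mmp genes (5 of 22, 22.7%, interval 10.1 to 43.4). Collagens (16 of 45, 35.6%), laminins (4 of 11, 36.4%) and Adamts genes (8 of 19, 42.1%) lay between them, as did the Adamtsl genes (3 of 5, 60.0%) and the singly listed genes (5 of 10, 50.0%). Only for the Mmp genes did the interval lie below the 49.4% of all protein-coding genes, and the intervals of the families overlapped one another. Of the 22 Mmp genes, 12 had no CpG island at a TSS, and 1 of these had a peak (8.33%), compared with 5.02% of all genes without an island. Of the 10 with an island, 4 had a peak (40.0%). With an island, the shares were 42.4% for collagens, 43.8% for Adamts genes and 33.3% for laminins, compared with 70.2% of all such genes.

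**Figure D1:**
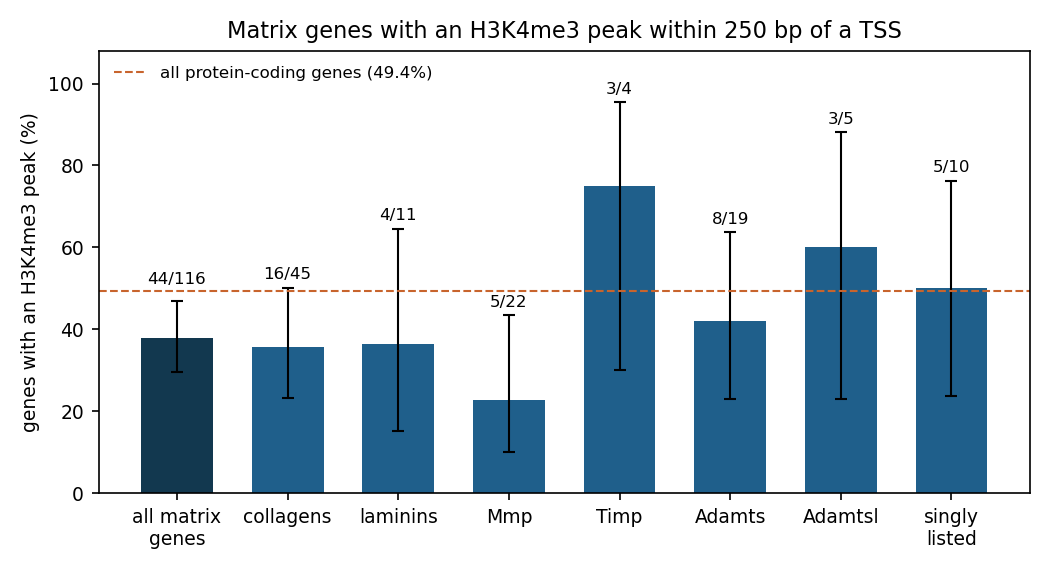
Share of genes with an H3K4me3 peak within 250 bp of a TSS (vertical axis, percent) for all matrix genes and for each family (bars), with 95% Wilson intervals (error bars), counts above the bars, and all protein-coding genes as a dashed line at 49.4%. The Mmp bar stands lowest at 22.7% and the Timp bar highest at 75.0%, with intervals that overlap.

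Among the fibrillar collagens, 4 of 11 genes had a peak, and these encode chains of types I and V. The peak of Col5a1, which encodes a chain of the type V collagen that starts and limits collagen fibrils, was 6430 bp wide (chr2:27885305-27891734, percentile 94.1). The peak of Col5a2, a second chain of type V, was 4068 bp wide (chr1:45500894-45504961, percentile 71.3). Col5a3, the remaining chain of this type, had the narrowest peak of any matrix gene at 843 bp (chr9:20814268-20815110, percentile 1.71). The 3 chains of type V thus all had a peak but spanned most of the range of widths. The chains of type I, the main collagen of connective tissue, were unlike each other at the TSS. The peak of Col1a2 was 4361 bp wide (chr6:4504422-4508782, percentile 76.8), from 1071 bp upstream to 3289 bp downstream of the TSS. Col1a1, which encodes the partner chain, had no peak within 250 bp, but a peak of 2725 bp began 538 bp downstream of its TSS, inside the gene (chr11:94936762-94939486). Col3a1, which encodes the type III collagen found beside type I, had its nearest peak 189356 bp away, at the neighboring Col5a2. Col2a1, Col11a1, Col11a2, Col24a1 and Col27a1, most of them known from cartilage, also had no peak.

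The sequences of Col1a1, Col1a2, Col3a1, Col6a3 and Fn1 are shown because they set fibrillar chains with and without a peak beside peaks of more than 7 kb over a promoter poor and a promoter rich in CG dinucleotides. Each runs 5′ to 3′ on the strand of the gene from 150 bases upstream of the TSS to at most 30 bases downstream, in the GRCm38 (mm10) build, with each CG in capitals. They lie at chr11:94936074-94936253 (plus strand), chr6:4505343-4505522 (plus), chr1:45311388-45311567 (plus), chr1:90843942-90844102 (minus) and chr1:71653171-71653325 (minus).
Col1a1: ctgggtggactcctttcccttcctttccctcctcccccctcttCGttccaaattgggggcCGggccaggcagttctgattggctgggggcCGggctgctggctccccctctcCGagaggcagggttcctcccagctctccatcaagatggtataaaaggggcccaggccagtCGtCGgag
Col1a2: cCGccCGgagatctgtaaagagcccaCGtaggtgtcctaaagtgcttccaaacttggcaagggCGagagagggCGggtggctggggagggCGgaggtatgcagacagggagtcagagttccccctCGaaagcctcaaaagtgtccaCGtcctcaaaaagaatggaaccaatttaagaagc
Col3a1: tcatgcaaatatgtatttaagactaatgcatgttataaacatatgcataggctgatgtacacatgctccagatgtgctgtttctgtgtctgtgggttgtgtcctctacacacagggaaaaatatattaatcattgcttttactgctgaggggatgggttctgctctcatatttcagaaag
Col6a3: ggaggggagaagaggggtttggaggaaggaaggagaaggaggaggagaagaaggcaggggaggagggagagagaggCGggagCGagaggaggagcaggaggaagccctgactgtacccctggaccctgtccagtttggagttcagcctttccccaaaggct
Fn1: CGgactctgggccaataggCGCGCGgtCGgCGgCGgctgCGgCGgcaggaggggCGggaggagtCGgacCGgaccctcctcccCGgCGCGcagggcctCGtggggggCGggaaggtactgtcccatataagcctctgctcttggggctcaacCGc
Col1a1, without a peak at the TSS, held 6 CG dinucleotides in 180 bases, and Col1a2, with a peak, held 8. Col3a1 held none and had a GC content of 38.3%. Col6a3 held 2 in 161 bases and Fn1 held 18 in 155 bases, although both had peaks of more than 7 kb. In the wider window of 501 bp centered on the TSS, the CG count was 19 for Col1a1, 21 for Col1a2, 4 for Col3a1, 9 for Col6a3 and 37 for Fn1.

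Of the 6 type IV collagen chains of the basement membrane, 4 had a peak. Their genes lie in head-to-head pairs, transcribed away from each other from TSSs within 2 kb, and the 3 pairs showed 3 arrangements. The TSSs of Col4a1 and Col4a2, which encode the chains of the most widespread type IV trimer, overlapped by 21 bp and lay under a shared peak of 7668 bp (chr8:11308958-11316625, percentile 97.1) that reached 3868 bp into Col4a1 and 3820 bp into Col4a2. The TSSs of Col4a4 and Col4a3, chains of the basement membrane of the kidney glomerulus, lay close together at positions 82586849 and 82586976 of chromosome 1 and had no peak, the nearest being 137678 bp from the TSS of Col4a3. The TSSs of Col4a6 and Col4a5, on the X chromosome, were 1309 bp apart and had separate peaks of 1398 bp (chrX:141472839-141474236, percentile 5.61) and 2188 bp (chrX:141475049-141477236, percentile 18.9), with 812 bp between them. A shared peak was thus found at 1 of the 3 collagen pairs, whereas 1017 of 1205 head-to-head pairs of protein-coding genes (84.4%) shared a peak and 116 had none. Stretches from the shared pair and from the pair without a peak are given on the plus strand with each CG in capitals, to show that both contain CG dinucleotides. They lie at chr8:11312800-11312829, which holds both TSSs, and at chr1:82586822-82586950, which holds the TSS of Col4a4 and ends short of that of Col4a3.
Col4a1 and Col4a2: tCGgcagtgCGCGggCGgCGtctccaaggg
Col4a4 and Col4a3: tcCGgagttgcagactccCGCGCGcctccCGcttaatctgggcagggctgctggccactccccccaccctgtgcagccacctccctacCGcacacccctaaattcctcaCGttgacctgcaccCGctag
The CG count within 250 bp of the TSS was 59 for Col4a1 and for Col4a2, 24 for Col4a4, 22 for Col4a3, 13 for Col4a6 and 14 for Col4a5. The pair without a peak therefore had more CG dinucleotides than the pair with separate peaks.

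**Figure D2:**
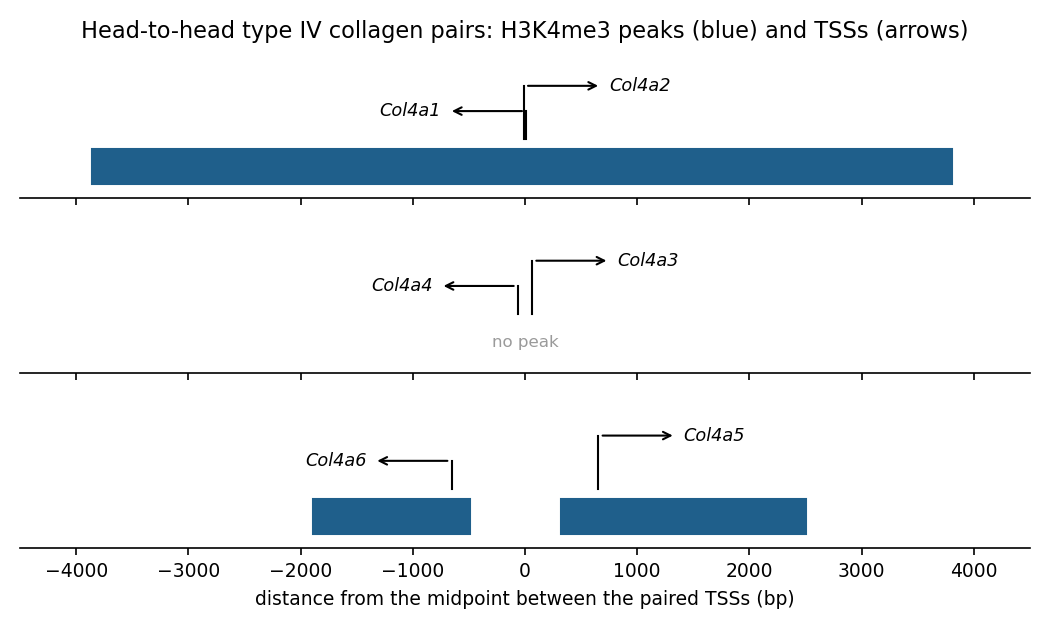
H3K4me3 peaks (blue boxes) and TSSs (arrows in the direction of transcription) at the head-to-head type IV collagen pairs, drawn to scale against the distance in bp from the midpoint between the paired TSSs. A single box of 7668 bp covers Col4a1 and Col4a2, no box lies at Col4a4 and Col4a3, and separate boxes of 1398 and 2188 bp lie at Col4a6 and Col4a5.

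The chains of type VI collagen, which forms beaded filaments around cells, split by location. Col6a3 had the widest peak of any matrix gene at 7779 bp (chr1:90837029-90844807, percentile 97.2), which ran 6923 bp into the gene. Col6a1 and Col6a2 lie on the same strand of chromosome 10 and had peaks of 3396 bp (chr10:76723168-76726563, percentile 54.3) and 2016 bp (chr10:76621493-76623508, percentile 15.0). Together with Col6a3 they encode the chains of the classical type VI trimer. Col6a4, Col6a5 and Col6a6 lie together on chromosome 9 over 408975 bp that held no peak. Neither Col6a3 nor Col6a1 had a CpG island at a TSS.

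The remaining collagens had few peaks. Of 9 chains of collagens that attach to fibrils, Col12a1 (4685 bp, chr9:79714407-79719091, percentile 81.7) and Col16a1 (4302 bp, chr4:130046803-130051104, percentile 75.9) had a peak, whereas Col9a1, Col9a2, Col9a3, Col14a1, Col19a1, Col20a1 and Col22a1 did not. Col8a1, a short-chain collagen of vessel walls and the cornea, had a peak of 5507 bp (chr16:57750916-57756422, percentile 90.2), and Col8a2 and Col10a1 had none. Col18a1, the source of endostatin, had a peak of 3110 bp (chr10:77164089-77167198, percentile 45.8), and the related Col15a1 had none. No peak was found at the 4 transmembrane collagens Col13a1, Col17a1, Col23a1 and Col25a1, or at Col7a1, Col26a1 and Col28a1. Col7a1 builds the anchoring fibrils under stratified epithelia and Col17a1 is a component of epithelial hemidesmosomes.

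The laminin genes with a peak encode an alpha chain, 2 beta chains and a gamma chain. Lamc1, the most widely used gamma chain, had a peak of 5034 bp (chr1:153329148-153334181, percentile 85.8). The beta chains Lamb2 (3959 bp, chr9:108478593-108482551, percentile 68.8) and Lamb1 (3660 bp, chr12:31264026-31267685, percentile 61.6) followed, and the alpha chain Lama5 had the narrowest of the 4 peaks (2479 bp, chr2:180223844-180226322, percentile 27.0). Of the 5 alpha chains, Lama5 alone had a peak, and Lama1, Lama2, Lama3 and Lama4 did not. Lamb3 and Lamc3 also lacked a peak within 250 bp. The nearest peaks to the TSSs of Lama3 and Lamb3 were 27877 and 28232 bp away.

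Most singly listed genes with a peak had a wide one. Fn1, which encodes fibronectin, had a peak of 7629 bp (chr1:71646729-71654357, percentile 97.0). The lysyl oxidase genes Lox (7064 bp, chr18:52522759-52529822, percentile 96.0) and Loxl1 (7039 bp, chr9:58307236-58314274, percentile 95.9) had peaks of similar width, and Loxl2 had none. The peak of Sparc, a collagen-binding glycoprotein, was 6615 bp wide (chr11:55414136-55420750, percentile 94.6). Thus 4 of these 5 peaks lay among the widest 10%. The exception was Smoc2, a calcium-binding protein related to Sparc, with 2203 bp (chr17:14279131-14281333, percentile 19.4). No peak lay at Smoc1, at Postn (periostin), or at Dcn and Lum, which encode the small proteoglycans decorin and lumican and lie in 93095 bp of chromosome 10 that held no peak.

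**Figure D3:**
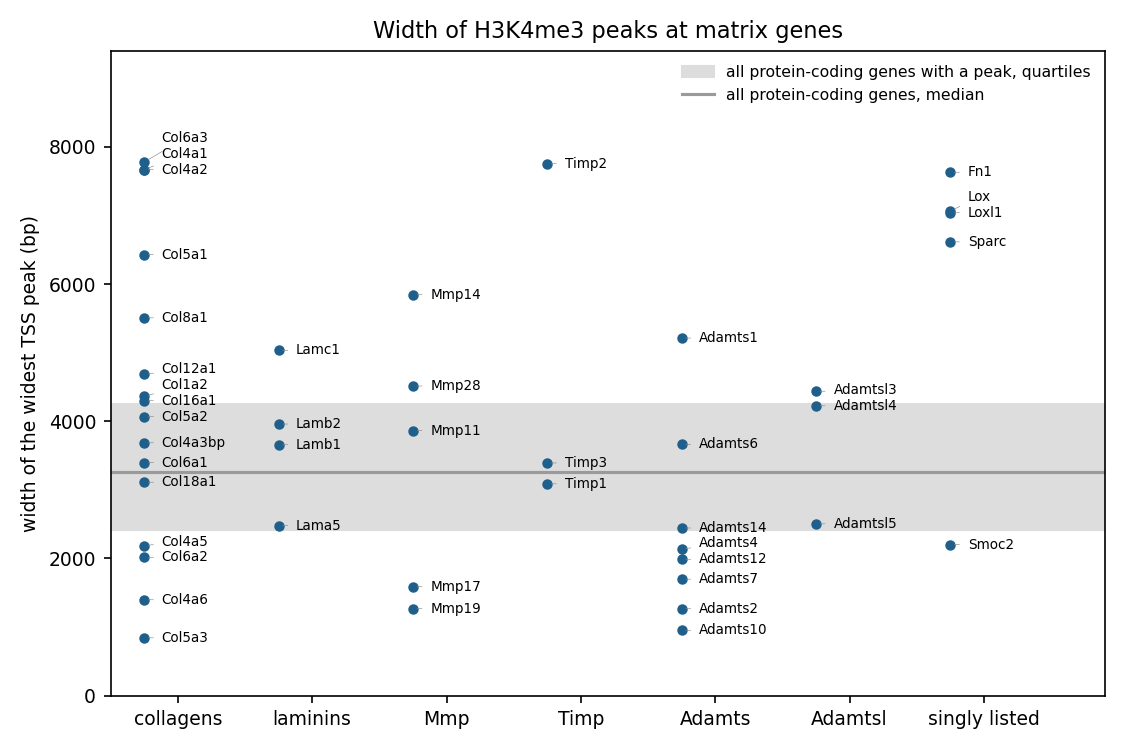
Width in bp of the widest H3K4me3 peak at a TSS (vertical axis) for the 44 matrix genes with a peak (points, named) by family, over the median (line, 3254 bp) and quartiles (gray band, 2410 to 4258 bp) of all protein-coding genes with a peak. Of the 5 singly listed genes, 4 lie above 6 kb, whereas 6 of the 8 Adamts genes lie below the median line.

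The Mmp family, which degrades collagens and other matrix proteins, had the lowest share with a peak. The 5 genes with a peak were Mmp14, Mmp28, Mmp11, Mmp17 and Mmp19. Mmp14, a membrane-bound collagenase that also activates the product of Mmp2, had a peak of 5844 bp (chr14:54429251-54435094, percentile 92.0). Mmp28 had 4513 bp (chr11:83460650-83465162, percentile 79.0) and Mmp11, also called stromelysin-3, had 3863 bp (chr10:75929654-75933516, percentile 66.4). These were the wider peaks of the family. Mmp17, the other membrane-bound enzyme with a peak, had 1591 bp (chr5:129583716-129585306, percentile 7.83), and Mmp19 had 1268 bp (chr10:128790538-128791805, percentile 4.33). Of the 6 membrane-bound enzymes 2 had a peak and of the other 16 enzymes 3 had a peak. The gelatinase genes Mmp2 and Mmp9 had no peak at a TSS.

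The secreted collagenases, stromelysins and related enzymes of chromosome 9 formed a block of 9 genes without H3K4me3 at a TSS. Mmp1b, Mmp3, Mmp7, Mmp8, Mmp10, Mmp12, Mmp13, Mmp20 and Mmp27 lie within 427072 bp, in which a single peak was found, at no TSS. Their median CG count within 250 bp of the TSS was 3.00, compared with 37.0 for the Mmp genes with a peak. The promoters of Mmp3, Mmp10 and Mmp13 are shown as members of this block and that of Mmp14 as the family's widest peak, from 150 bases upstream to 30 bases downstream of the TSS on the plus strand (GRCm38), with TATAAA and either TGACTCA or TGAGTCA in capitals. TATAAA is the core of the TATA box, and TGACTCA and its reverse complement TGAGTCA are the site that AP-1 factors are known to recognize. They lie at chr9:7445672-7445851, chr9:7502202-7502381, chr9:7272364-7272543 and chr14:54431462-54431641.
Mmp3: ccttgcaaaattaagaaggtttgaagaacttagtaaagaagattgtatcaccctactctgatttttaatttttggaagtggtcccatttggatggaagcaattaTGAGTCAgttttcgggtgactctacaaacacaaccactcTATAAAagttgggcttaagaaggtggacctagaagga
Mmp10: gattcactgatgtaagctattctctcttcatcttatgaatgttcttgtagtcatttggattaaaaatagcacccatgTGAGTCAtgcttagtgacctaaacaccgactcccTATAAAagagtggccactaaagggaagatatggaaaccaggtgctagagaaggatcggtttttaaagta
Mmp13: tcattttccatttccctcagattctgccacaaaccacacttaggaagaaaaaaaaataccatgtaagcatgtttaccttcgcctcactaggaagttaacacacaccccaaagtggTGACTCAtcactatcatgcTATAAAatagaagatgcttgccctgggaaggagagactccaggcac
Mmp14: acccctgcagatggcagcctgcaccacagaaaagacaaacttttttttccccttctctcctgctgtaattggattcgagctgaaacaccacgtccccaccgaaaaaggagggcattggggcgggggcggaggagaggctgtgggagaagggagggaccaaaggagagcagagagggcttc
Each of the first 3 held both motifs, the TATAAA beginning 7, 39 and 16 bases and the TGACTCA or TGAGTCA beginning 46, 73 and 35 bases upstream of the annotated TSS of Mmp3, Mmp10 and Mmp13. The Mmp14 window held neither.

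These motifs were counted on both strands in the 300 bp from 250 bp upstream to 50 bp downstream of the TSS. TATAAA was found at 10 of the 22 Mmp genes (45.5%) and at 12.5% of all protein-coding genes. TGACTCA or TGAGTCA was found at 8 Mmp genes (36.4%), namely Mmp1b, Mmp3, Mmp7, Mmp9, Mmp10, Mmp12, Mmp13 and Mmp19, and at 4.40% of all genes. Of these 8, Mmp19 alone had a peak. Over all matrix genes, TATAAA stood at 2 of the 44 with a peak (4.55%, Adamts1 and Mmp19) and at 21 of the 72 without (29.2%), the latter including Col1a1, Col3a1, Col10a1, Col14a1 and Postn. Among all protein-coding genes the shares were 6.45% with and 18.4% without a peak. GGGCGG, the core of sites bound by Sp factors, stood at 72.7% of matrix genes with a peak and 41.7% without, compared with 67.1% and 25.0% of all genes. CCAAT was about as frequent with a peak (29.5%) as without (30.6%), and both shares lay below the 38.4% of all genes. A match to such letters is a description of the sequence and no evidence of binding.

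The inhibitors of these enzymes were mostly marked. Timp2 had a peak of 7753 bp (chr11:118348445-118356197, percentile 97.2), which ran 7061 bp into the gene. Timp3, an inhibitor that is bound to the matrix, had a peak of 3392 bp (chr10:86300034-86303425, percentile 54.2), and Timp1 had 3088 bp (chrX:20869773-20872860, percentile 45.2). Timp4 had no peak. Timp1, Timp3 and Timp4 each lie inside a synapsin gene on the opposite strand (Syn1, Syn3 and Syn2), and none of the 3 synapsin genes had a peak at a TSS.

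Adamts peaks were mostly narrow. The exceptions were Adamts1 (5212 bp, chr16:85799362-85804573, percentile 87.7), a protease of versican and aggrecan, and Adamts6 (3663 bp, chr13:104285474-104289136, percentile 61.6). Adamts14 (2443 bp, chr10:61271876-61274318, percentile 25.9) and Adamts2 (1267 bp, chr11:50601583-50602849, percentile 4.31) encode procollagen N-proteinases, which trim the amino ends of fibrillar collagens, and the third enzyme of this kind, Adamts3, had no peak. Adamts4, an aggrecanase, had 2138 bp (chr1:171250129-171252266, percentile 17.7). Adamts10 had the narrowest peak of the family at 952 bp (chr17:33523966-33524917, percentile 2.25), and Adamts12 and Adamts7 had 1988 and 1698 bp. The median of the 8 peaks was 2063 bp, and 2 of the 8 exceeded the median of all genes. Of the 7 enzymes that cleave the large aggregating proteoglycans, Adamts1 and Adamts4 had a peak, whereas Adamts5, Adamts8, Adamts9, Adamts15 and Adamts20 did not. The Adamtsl proteins, which lack the protease domain, had peaks at Adamtsl3 (4434 bp, chr7:82334152-82338585, percentile 77.9), Adamtsl4 (4225 bp, chr3:95684338-95688562, percentile 74.3) and Adamtsl5 (2505 bp, chr10:80347165-80349669, percentile 27.7), and none at Adamtsl1 and Adamtsl2.

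At start sites rich in CG dinucleotides a lower share of matrix genes than of all genes had a peak, and at start sites poor in them a higher share. A CpG island lay within 250 bp of a TSS of 80 matrix genes, of which 37 (46.2%) had a peak, compared with 70.2% of all protein-coding genes with such an island. Of the 36 matrix genes without an island, 7 (19.4%) had a peak, compared with 5.02% of all genes without an island. These 7 were Col6a3, Sparc, Lamb2, Col6a1, Timp1, Adamts4 and Mmp19. Under a stricter definition of islands, 27 of 59 matrix genes with an island had a peak, compared with 77.6% of all genes. The same was seen when genes were ranked by their CG count within 250 bp of the TSS and divided into 5 classes of similar size. In the lowest class (0 to 5) 3 of 19 matrix genes had a peak (15.8%, interval 5.52 to 37.6), compared with 4.19% of all genes. In the next (6 to 16) 12 of 32 had a peak (37.5%, interval 22.9 to 54.7), compared with 19.8%. The order was the opposite in the CpG-rich classes. The shares were 34.8% for matrix genes and 61.6% for all genes at 17 to 33, 44.4% and 80.6% at 34 to 47, and 60.0% and 82.7% at 48 to 105. In the 2 lower classes the share of all genes lay below the interval of the matrix genes, and in the 3 upper classes it lay above it, with an upper bound of 80.2% in the highest class. The 3 genes of the lowest class with a peak were Mmp19, Adamts4 and Sparc, and the peak of Sparc lay over another promoter than the TSS at which its CG count was taken. When only peaks at the TSS of the CG count were taken, for matrix genes and all genes alike, the lowest class held 2 of 19 (10.5%, interval 2.94 to 31.4) against 2.01% of all genes, and the next class held 11 of 32 (34.4%, interval 20.4 to 51.7) against 15.7%, the gene lost being Col18a1.

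**Figure D4:**
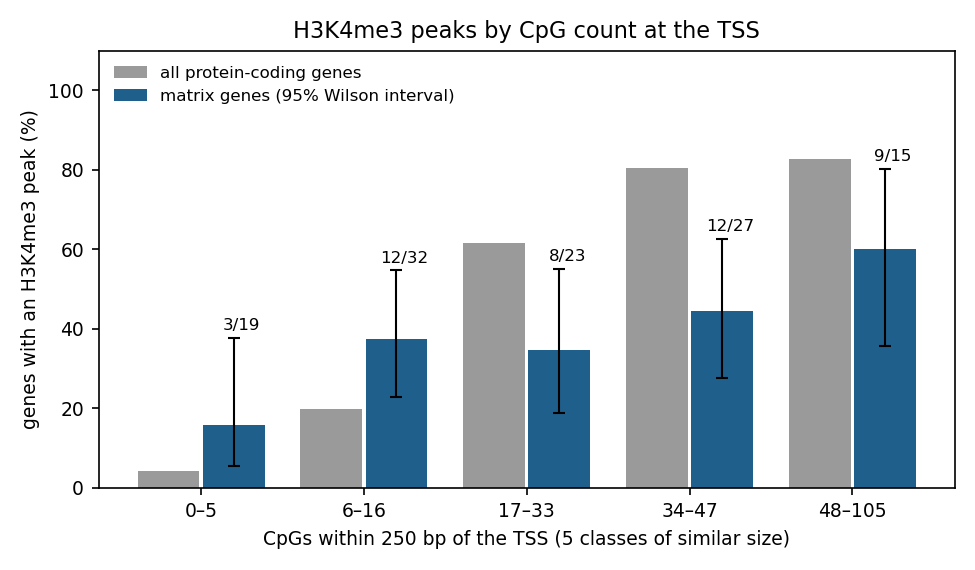
Share of genes with an H3K4me3 peak at a TSS (vertical axis, percent) by CG count within 250 bp of the TSS, in 5 classes of similar size (horizontal axis), for all protein-coding genes (gray) and matrix genes (blue, 95% Wilson intervals, counts above). The gray bars climb from 4.19% to 82.7% and the blue bars from 15.8% to 60.0%, with blue above gray in the 2 lower classes and below it in the 3 upper classes.

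The median CG count was 32.0 for matrix genes with a peak and 17.0 for those without, compared with 40.0 and 8.00 over all protein-coding genes. Several matrix genes with CpG-rich start sites had no peak, among them Mmp24 (82 within 250 bp of the TSS), Adamts20 (67), Col23a1 (58), Col8a2 (55), Adamts9 (51), Lama1 (46), Lamc3 (44) and Smoc1 (41). Conversely, Col6a3 (9) had a peak among the widest 10%, while Adamts2, with the highest count of the 44 at 68, had a peak among the narrowest 10%. For Sparc and Col18a1 the CG count was taken at a promoter other than the one under the peak. Across the 44 genes, Spearman's rho of width and CG count was 0.112, compared with 0.215 across the 10747 genes. These are descriptions over loci of the same list, which are not independent.

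The peaks of matrix genes extended mainly into the gene. Without the 11 genes that had a TSS of the other strand within 2 kb, the median reach of the peak was 2459 bp downstream of the TSS (quartiles 1401 and 3520 bp, n = 33) and 691 bp upstream (quartiles 395 and 1264 bp). The downstream side was longer in 31 of the 33 genes (93.9%), and in 90.7% of 7411 protein-coding genes selected in the same way, whose median reach was 2119 bp downstream and 802 bp upstream. The exceptions were Adamts6, which reached 2399 bp upstream and 1263 bp downstream, and Adamtsl5, with 1257 and 1247 bp. In several of the widest peaks most of the width lay downstream, as the upstream side of the peaks of Col6a3, Timp2, Loxl1 and Sparc was 855, 691, 1088 and 670 bp long and the downstream side 6923, 7061, 5950 and 5944 bp. Among the genes set aside, Fn1 reached 6443 bp downstream and 1185 bp upstream, whereas the shared peak of Col4a1 and Col4a2 was nearly even on both sides. Mmp14 and Mmp28 were among the genes with the longest upstream sides, at 2361 and 2170 bp.

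**Figure D5:**
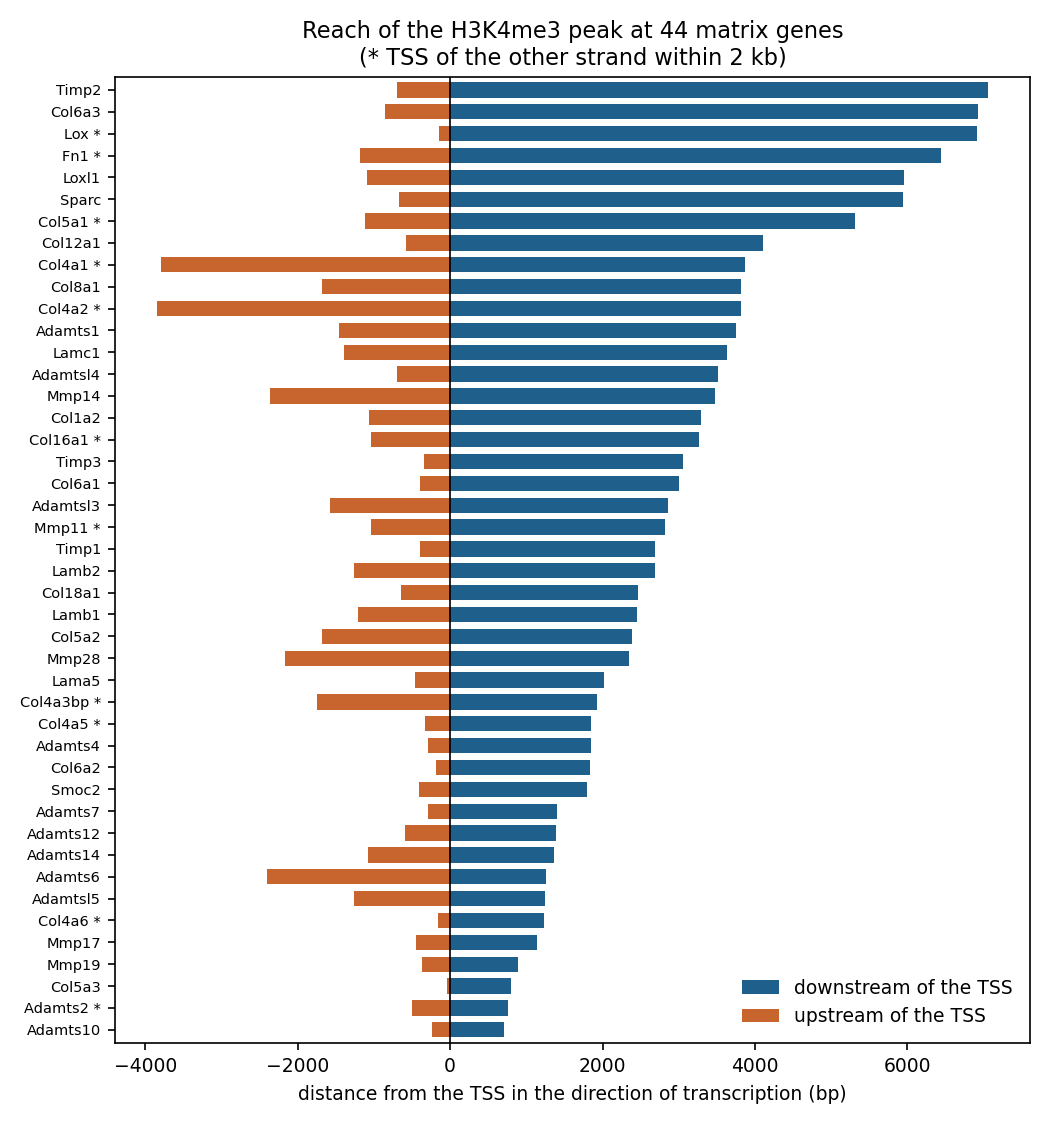
Reach of the H3K4me3 peak downstream (blue) and upstream (orange, negative) of the TSS in bp for each of the 44 matrix genes with a peak, sorted by downstream reach, with an asterisk where a TSS of the other strand lay within 2 kb. Blue is longer than orange in 41 of the 44 genes, and Timp2 reaches farthest with 7061 bp.

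Few of the peaks were shared with another protein-coding gene. Such sharing was seen at 4 of the 44 genes (9.09%), compared with 23.6% of all protein-coding genes with a peak. Beside the Col4a1 and Col4a2 pair, the peak of Mmp11 also covered the TSS of Chchd10, 628 bp away, and the peak of Col4a3bp (3686 bp, chr13:96540864-96544549, percentile 62.1) also covered that of Polk, 133 bp away.

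In a few genes with several promoters more than 1 kb apart, the peak marked some of them and not others. There were 14 matrix genes with such promoters, of which 9 had no peak at any promoter, 3 had a peak at some (21.4%) and 2 had a peak at all. Col18a1 had its peak at the upstream promoter and none at the downstream one, and so had Adamts6. In Sparc the peak lay over the downstream promoter, which holds 4 annotated TSSs, and not over the TSS farthest upstream. In Adamts4 and Adamtsl3 a single peak covered both promoters. Over all 4586 protein-coding genes with several promoters, 2615 had no peak, 1488 had a peak at some (32.4%) and 483 at all.

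Matrix genes without a peak at a TSS were mostly far from any. The distance from the TSS to the nearest peak had a median of 86472 bp over the 72 genes, compared with 86397 bp over the 11008 protein-coding genes without a peak, and exceeded 100 kb for 31 of the 72 (43.1%), compared with 46.7% of all such genes. It was longest for Mmp16 (1683485 bp) and Col22a1 (1025551 bp). A peak lay within 2 kb of 3 of the 72 (4.17%), compared with 2.27% of all protein-coding genes without a peak. Those genes were Col1a1, described above, Adamts5, with a peak of 3998 bp that began 300 bp downstream of the TSS, and Postn, with a peak of 695 bp that lay 1867 bp upstream. On the inner side of the 250 bp limit no gene was near it, since every counted peak covered a TSS.

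Some matrix genes also had H3K4me3 peaks that overlapped the gene away from any TSS of the basic annotation. There were 22 such peaks in 19 of the 116 genes (16.4%), with a median width of 1451 bp (440 to 3998 bp). Such a peak was found in 6.02% of all protein-coding genes, whose median length was 16650 bp, compared with 50462 bp for the matrix genes. A CpG island was overlapped by 7 of the 22 (31.8%), compared with 35.2% of all such peaks in protein-coding genes. With all GENCODE transcripts 5 of the 22 lay at a TSS, namely those of Col18a1, Col1a1, Col8a2 and Adamtsl2 and 1 of those of Mmp28. Of the 19 genes, 12 also had a peak at a TSS. Among the other 7, Mmp2, which encodes a gelatinase of basement membrane collagen, had a peak of 2767 bp that lay 17876 bp from its TSS. Mmp28 had 3 such peaks and Smoc2 had 2, and Lamc1 held a peak of 2366 bp that lay 22995 bp from the TSS. The peak of Adamtsl4 and the 915-bp peak of Mmp28 lay mostly beyond the 3′ end of the gene.

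Other genes of the pathway were counted for comparison, each list being described beside the 49.4% of all protein-coding genes and the 70.2% of those with a CpG island. Of 31 genes for the folding, modification, processing and crosslinking of collagen, 23 had a peak (74.2%, interval 56.8 to 86.3), with a median width of 3740 bp. The widest were at Loxl3, a lysyl oxidase (9109 bp), Serpinh1, the collagen chaperone HSP47 (8539 bp), Pcolce, an enhancer of procollagen cleavage (7226 bp), and Bmp1, the procollagen C-proteinase (6943 bp). All 3 Plod genes and all 3 P4ha genes, which encode lysyl and prolyl hydroxylases of collagen, had a peak, whereas the prolyl 3-hydroxylases P3h2 and P3h3 did not. Neither did Colgalt2, Fkbp10, Pcsk5, Pcsk6, Tll1 and Tll2. Of the 31 genes, 30 had a CpG island at a TSS. A peak lay at 22 of these 30 (73.3%), close to the 70.2% of all protein-coding genes with an island. Of 30 receptors 15 had a peak (50.0%, median 4447 bp), including Itgb5 (9109 bp), Itga3 (8679 bp), Sdc4 (7496 bp) and the collagen receptor Ddr1 (7016 bp), whereas Ddr2 and Itga2 had none. Itgb1, the beta subunit common to many matrix-binding integrins, had a peak of 3488 bp. Of the 27 receptor genes with a CpG island, 15 had a peak (55.6%), a lower share than the 70.2% of all genes with an island.

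Among 54 other glycoproteins and proteoglycans 19 had a peak (35.2%, interval 23.8 to 48.5, median 3907 bp). The widest were at Thbs1, which encodes thrombospondin-1 (10875 bp), and Ccn1 (7765 bp). Hspg2 (perlecan) and Agrn (agrin) of the basement membrane had peaks of 3907 and 2951 bp, whereas the nidogens Nid1 and Nid2, elastin (Eln) and fibrillin-1 (Fbn1) had none. All 4 Ltbp genes, which encode binding proteins of latent TGF-beta, had a peak. Of 24 other proteases and inhibitors 15 had a peak (62.5%, interval 42.7 to 78.8, median 3389 bp), including the plasminogen activators Plat (2440 bp) and Plau (2167 bp) as well as the receptor Plaur (4521 bp), whereas Plg and Ctsk did not. With a CpG island, 14 of 37 glycoproteins and proteoglycans (37.8%) and 15 of 16 proteases and inhibitors (93.8%) had a peak. Without an island, the counts were 5 of 17 (29.4%) and 0 of 8.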

How the data were processed

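H3K4me3 ChIP-seq of C127 cells (3 replicates) was analysed, and samples were grouped by the labels alone. According to the study's methods, bowtie2 placed the reads on mm10, only uniquely placed reads were used and SAMtools took out duplicates. By the same methods, MACS called peaks in each replicate over a matched control, and the authors kept peaks found in all replicates and merged near neighbors. The labels name a single input for the H3K4me3 ChIP. In the submitters' processing notes the tools (Bowtie2, SAMtools and MACS2) have no version. The deposited list holds 3 columns (chromosome, start and end in bp, on mm10) and no score, so peaks could not be ranked by strength, no test over samples was possible and depth per sample is unknown. Because only uniquely placed reads were used, a promoter with near-identical copies can lack a peak for this reason.

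Starts were converted to 1-based positions and 13447 of 13451 peaks, those on 19 autosomes and X, were used. TSSs, genes and sequences came from GENCODE vM21 basic transcripts and the GRCm38.p6 sequence (52518 TSSs). Where a single TSS per gene was needed (CG count, GC, motifs, promoter windows), that of the APPRIS principal transcript, or else the longest, was taken. CpG islands were unions of 200-bp windows whose GC fraction was 0.5 or more and whose ratio of observed to expected CpG was 0.6 or more (177703 islands, repeats kept, methylation not used), or, as the stricter setting, of 500 bp, 0.55 and 0.65. A head-to-head pair had TSSs on opposite strands within 2 kb. The assignment of peaks to TSSs was tested on simulated peaks. Alternatives for the distance, the TSS set, peak width, symbols, multi-copy promoters and islands are given in the closing section. Sequences were shortened where needed to hold at most 30 exonic bases of their gene. Widths and positions are printed for the widest and narrowest peaks of each family, members of shared peaks or pairs, and genes with several promoters, and further members were named to account for each family. Some members and list genes are not reported here. The members, lists and this rule were chosen with earlier results of these data known. The tools were Python 3.11.15, pandas 2.3.3, numpy 2.4.6, matplotlib 3.10.9 and scipy 1.17.1.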

Additional observations from a re-analysis of the deposited data

How the results depend on the processing

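Of 87 values recomputed under alternatives, 83 stayed within the 95% interval of the value as reported or, for the count of head-to-head pairs that share a peak, did not move. Most are recounts of the same genes and the intervals of small families are wide, so staying within them is a weak check. With all GENCODE transcripts the Adamtsl share rose from 60.0% to 80.0% and passed the 75.0% of the Timp genes. The 5 values with peaks at the TSS of the CG count were chosen after seeing the data. The share of all protein-coding genes with a peak (49.4%) moved to 47.8% with 1 TSS per gene, to 50.2% with all GENCODE transcripts, to 48.2% with peaks of at least 1000 bp and to 51.4% without 848 genes with multi-copy promoters, none of them a matrix gene, while the share of matrix genes lay between 36.2% and 41.4%. A limit of 1000 bp added Adamts5 and Col1a1, and all GENCODE transcripts added Adamtsl2, Col1a1, Col8a2 and Lamb3. The use of 1 TSS per gene lost Col18a1 and Sparc, and peaks of at least 1000 bp lost Adamts10 and Col5a3. The absence of a peak at Col1a1 therefore holds for the basic TSS set and the 250 bp limit. The cause of the other shifts was not tested. No paired analysis was possible because the list holds no values per replicate, and for the same reason leaving out each replicate was not run. A gene without a peak in the list may carry H3K4me3 below the calling threshold or in some replicates, which could not be seen without depth.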
